A study of Mus musculus with 21 samples.

Results

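The genes described here make cholesterol and fatty acids, or control the making of them. They are 29 genes chosen by name: 18 enzymes of sterol synthesis, 6 genes of the SREBP pathway and of sterol transport, and 5 genes of fatty acid synthesis. All 29 names were found in both deposited tables, among 21161 gene names in the table of cell states and 55291 in the table of lactate doses, and all 29 passed the filter on low values in both. RNA was sequenced from mouse cells that the labels assign to the line OG2. In the first table, embryonic stem cells (ESC), 2-cell-like cells (2CLC, which carry transcripts of the early embryo), epiblast stem cells (EpiSC, pluripotent cells in the primed state) and fibroblasts from mouse embryos (MEF) have 3 libraries each, all with the treatment given as WT. The second table holds 3 libraries each of ESC without added lactate (0 mM, treatment again given as WT) and with sodium lactate at 60 or 80 mM. The labels give no time of exposure, no culture conditions and no method of obtaining the 2CLC or the MEF, and they do not say whether the libraries of a group came from separate cultures, so the p-values below measure the spread between these libraries, which may be technical.

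Cholesterol is built from acetyl-CoA by way of mevalonate, farnesyl pyrophosphate, squalene and lanosterol, and fatty acids are built from the same acetyl-CoA, which ATP citrate lyase (Acly) supplies from citrate. When membranes are poor in sterol, SCAP carries the SREBP transcription factors (Srebf1, Srebf2) from the endoplasmic reticulum to the Golgi, where they are cut and released to switch on both sets of genes. INSIG proteins hold SCAP back when sterol is plentiful, and Insig1 is itself an SREBP target. Sterol genes lean mainly on SREBP-2, and fatty acid genes mainly on SREBP-1c.

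Values are FPKM (fragments per kilobase of transcript, scaled to the mapped fragments of the library) as deposited, so levels of different genes may be compared per length, while read depth cannot be told from them. Per library the values added up to 375926 to 519915 FPKM among the cell states and 396792 to 409131 among the lactate doses. The labelled states carried their markers: 8 genes of a 2-cell marker list summed to 21849 to 24998 FPKM in the 2CLC (4.21 to 4.82% of the library sum) and to 8.1 to 8.42 in the ESC, 9 primed genes summed to 667 to 864 in the EpiSC and to at most 131.8 elsewhere, and 12 fibroblast genes summed to 1512 to 1530 in the MEF and to at most 14.8 elsewhere. EpiSC replicate 1 stood apart from the other EpiSC libraries (Pearson r across genes 0.973 with each of replicates 2 and 3, which had r = 0.9955 with each other). In that library 9 hypoxia response genes summed to 248 FPKM against 1639 and 1678, and 19 of the 29 genes were above both other EpiSC libraries while 9 were below both. The same count over all genes was not made, so whether these numbers are particular to the set is not known. In bulk libraries such as these, fewer cells with a transcript and less of it per cell cannot be told apart.

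The promoters of 6 of the genes are shown because the results below turn on them. Hmgcs1 and Insig1 are classical SREBP targets, and Fasn stands for fatty acid synthesis. Cyp51 and Dhcr7 are sterol enzymes that were higher in both 2CLC and EpiSC than in ESC, and Cyp51 was higher in MEF as well. Ebp is the sterol enzyme that went the other way in EpiSC. Each promoter is the run of 250 bases before the RefSeq start site on build GRCm38.p6, 5′ to 3′ on the gene's own strand. Capitals mark the pentamer CCAAT, or ATTGG on the other strand, which the factor NF-Y is known to bind, and TCACNCCAC (GTGGNGTGA on the other strand), the letters of a classical sterol regulatory element. In Fasn a pentamer on each strand overlaps in 1 block of capitals, and the Dhcr7 window shown holds neither motif. Another Dhcr7 window, not shown, at chr7:143829964-143830213, holds CCAAT 85 and ATTGG 49 bases before its start site. The windows lie at chr13:119690101-119690350 on the plus strand for Hmgcs1, chr5:28071162-28071411 on the plus strand for Insig1, chr5:4104698-4104947 on the minus strand for Cyp51, chr7:143822917-143823166 on the plus strand for Dhcr7 (the first of its windows in the table), chrX:8193513-8193762 on the minus strand for Ebp and chr11:120824548-120824797 on the minus strand for Fasn.
Hmgcs1: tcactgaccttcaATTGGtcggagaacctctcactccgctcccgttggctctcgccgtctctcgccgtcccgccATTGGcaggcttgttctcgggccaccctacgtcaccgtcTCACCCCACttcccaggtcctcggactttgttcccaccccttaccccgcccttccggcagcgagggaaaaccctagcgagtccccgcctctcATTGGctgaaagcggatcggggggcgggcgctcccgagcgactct
Insig1: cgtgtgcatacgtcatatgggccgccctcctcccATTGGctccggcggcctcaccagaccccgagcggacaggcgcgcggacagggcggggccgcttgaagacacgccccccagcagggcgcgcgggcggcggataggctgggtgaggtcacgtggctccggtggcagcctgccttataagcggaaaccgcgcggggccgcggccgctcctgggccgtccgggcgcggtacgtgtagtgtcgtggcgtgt
Cyp51: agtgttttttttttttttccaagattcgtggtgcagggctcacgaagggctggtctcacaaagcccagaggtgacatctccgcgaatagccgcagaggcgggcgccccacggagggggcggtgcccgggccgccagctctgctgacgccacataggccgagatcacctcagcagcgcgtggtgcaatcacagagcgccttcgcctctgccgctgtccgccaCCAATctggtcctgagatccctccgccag
Dhcr7: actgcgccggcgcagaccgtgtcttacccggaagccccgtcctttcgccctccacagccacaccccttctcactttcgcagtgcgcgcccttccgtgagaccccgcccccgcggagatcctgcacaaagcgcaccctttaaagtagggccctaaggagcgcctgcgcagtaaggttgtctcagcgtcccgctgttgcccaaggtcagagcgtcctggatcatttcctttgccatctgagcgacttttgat
Ebp: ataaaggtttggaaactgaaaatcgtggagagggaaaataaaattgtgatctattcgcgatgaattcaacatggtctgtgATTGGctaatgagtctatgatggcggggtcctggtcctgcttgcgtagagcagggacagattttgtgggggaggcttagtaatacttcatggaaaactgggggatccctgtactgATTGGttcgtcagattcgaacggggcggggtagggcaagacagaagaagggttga
Fasn: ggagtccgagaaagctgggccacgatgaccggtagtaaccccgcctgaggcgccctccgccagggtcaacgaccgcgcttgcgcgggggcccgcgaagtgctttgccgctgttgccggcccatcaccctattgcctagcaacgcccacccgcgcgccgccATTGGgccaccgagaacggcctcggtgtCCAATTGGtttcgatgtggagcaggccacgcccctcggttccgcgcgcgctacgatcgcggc

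Windows were at hand for 23 of the 29 genes, and not for Stard4, Fdft1, Sqle, Scd1, Scd2 and Fdps. CCAAT stood on either strand in at least 1 window of 19 of these 23 genes, or 82.6%, against 37.5% of the 27025 genes with a window. Counted by window, since a gene can have several, it stood in 20 of 31 (64.5%) against 33.8% of all 32851. The 4 without it were Acat2, Scap, Acly and Acaca. TCACNCCAC was found in 1 of the 23, Hmgcs1, where it begins 137 bases before the start site, and in 1.22% of all genes. These are matches of letters in a short window and say nothing about binding in these cells.

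In EpiSC nearly the whole set was higher than in ESC. Of the 29 genes, 27 rose and 1 fell by limma on log2(FPKM + 1) (Benjamini-Hochberg adjusted p under 0.05 over 16358 genes), where 33.2% of all genes tested were called higher and 26.5% lower. The median log2 change was 1.15 over the 18 sterol enzymes, 1.22 over the 6 regulators and carriers and 0.49 over the 5 fatty acid genes, against 0.01 over all genes tested. Ebp, the sterol isomerase that moves a double bond in ring B, was the gene that fell, and Scap, the escort of SREBP, did not pass the test.

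**Figure D1:**
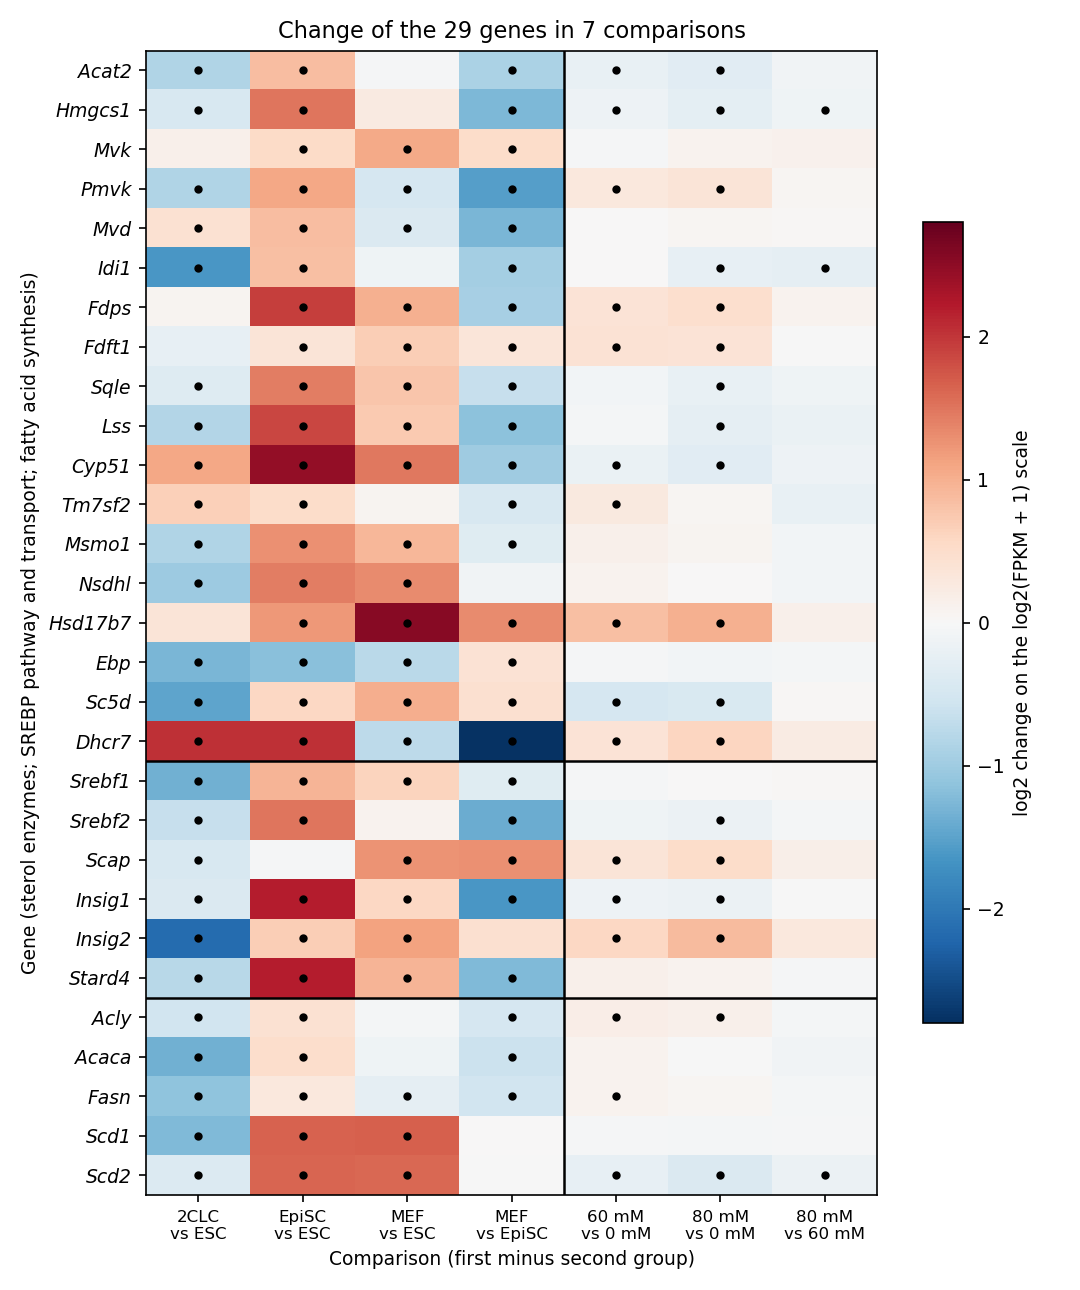
Log2 change on the log2(FPKM + 1) scale of each of the 29 genes (rows, in the order sterol enzymes, SREBP pathway and transport, fatty acid genes, separated by lines) in 7 comparisons (columns, first minus second group); dots mark an adjusted p under 0.05. The EpiSC column is red in all rows but Ebp and Scap, while the lactate columns hold changes of both signs, most of them paler.

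Among the regulators, Srebf2, which encodes SREBP-2, stood at 56.2, 51.6 and 54.4 FPKM in the ESC libraries and at 159, 151 and 152 in the EpiSC libraries. The groups lie far apart, and the log2 change was 1.49 ± 0.05 (SE, adjusted p = 4.16e-10). Srebf1 rose less, from 17.7 ± 0.14 to 35 ± 0.33 FPKM (SD, n = 3), a log2 change of 0.94 ± 0.05. Insig1 rose 4.78-fold, from 22.1, 22.7 and 23.6 FPKM to 121, 104 and 102, and Stard4, a carrier that moves cholesterol between membranes, 4.95-fold, from 9.59, 9.11 and 9.64 FPKM to 44.9, 48.1 and 47.2. Insig2, the second INSIG, rose by 0.69 ± 0.19 on the log2 scale (adjusted p = 0.00979). Its 8.08 FPKM in EpiSC replicate 1 was close to the ESC range of 6.15 to 7.34, against 13.7 and 14.3 in the other EpiSC libraries, and its call ended in a fit of only these groups (adjusted p = 0.0519) and after quantile normalization (adjusted p = 0.0526). Scap stood at 12.4 ± 0.29 FPKM in ESC and 12.2 ± 1.1 in EpiSC, a log2 change of -0.03 ± 0.08.

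The 7 enzymes from acetyl-CoA to farnesyl pyrophosphate all rose in EpiSC. Acetoacetyl-CoA thiolase (Acat2) rose 1.83-fold, the mevalonate kinases Mvk and Pmvk 1.5-fold and 2.17-fold, the decarboxylase Mvd 1.85-fold and the isomerase Idi1 1.85-fold. HMG-CoA synthase (Hmgcs1) stood at 62.8, 63.4 and 64 FPKM in ESC and at 235, 158 and 158 in EpiSC. Farnesyl pyrophosphate synthase (Fdps) stood at 63.8, 62.1 and 62.4 against 248, 240 and 236, which made it the most abundant of the 18 sterol enzymes in EpiSC by mean level. For both genes every EpiSC library is above every ESC library, and for Hmgcs1 replicate 1 is the high one.

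At the branch into sterols the steps rose unequally. Squalene synthase (Fdft1), the first enzyme committed to sterols, rose least of the sterol enzymes that rose, from 26.5 ± 0.66 to 34.5 ± 4.7 FPKM, and its log2 change of 0.36 ± 0.1 (adjusted p = 0.00973) fell to 0.26 (adjusted p = 0.0575) after median-of-ratios scaling. Squalene epoxidase (Sqle) rose 2.77-fold and lanosterol synthase (Lss) 3.85-fold, the latter from 12.8, 13.7 and 13.5 FPKM to 49.1, 54.5 and 50.8. Lanosterol demethylase (Cyp51) had the largest log2 change of the 29 genes in this comparison, 2.47 ± 0.08.

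The late steps rose too, apart from Ebp. Demethylation at C4 runs through Msmo1, Nsdhl and Hsd17b7, which rose 2.48-fold, 2.85-fold and 3.22-fold. Hsd17b7 stood at 2.94, 3.09 and 2.66 FPKM in ESC and at 17.1, 5.2 and 5.68 in EpiSC, so replicate 1 carries much of its change: without that library the log2 change was 0.73 in place of 1.22 (adjusted p = 7.84e-06). In a fit of only these groups, with replicate 1 kept, its call ended (adjusted p = 0.0694). The sterol desaturase Sc5d rose 1.57-fold, and Tm7sf2, a sterol reductase acting after Cyp51, 1.49-fold. Dhcr7, which makes cholesterol from its last precursor, stood at 15.3, 15.5 and 17.8 FPKM in ESC and at 66, 70.6 and 72.1 in EpiSC. Ebp stood at 18.3, 18.1 and 18.6 in ESC and at 7.05, 7.81 and 7.84 in EpiSC, a log2 change of -1.18 ± 0.13 (adjusted p = 1.13e-05). It was thus lower by 2.42-fold in cells in which the enzymes before and after it were higher.

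**Figure D2:**
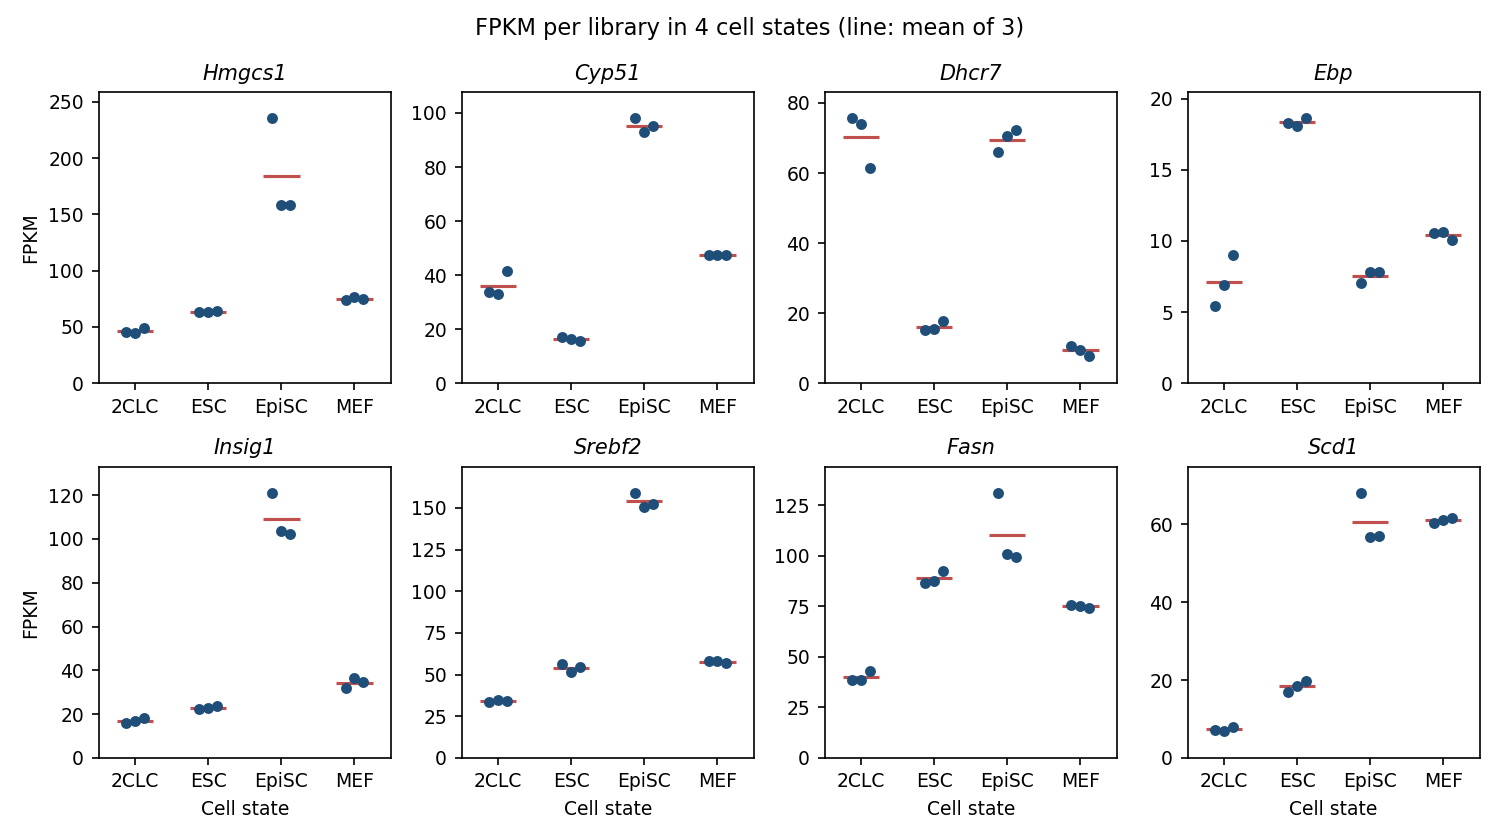
FPKM (linear axes from 0) of 8 genes in each library of the 4 cell states; points are libraries in the order of their replicate number and lines are means of 3. Dhcr7 is high in 2CLC and EpiSC, Ebp is highest in ESC, and Fasn and Scd1 are lowest in 2CLC.

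The 5 fatty acid genes split in EpiSC. The desaturases Scd1 and Scd2, which put the first double bond into saturated fatty acids, rose 3.29-fold and 3.15-fold. Scd1 stood at 17, 18.4 and 19.8 FPKM in ESC and at 68, 56.8 and 56.9 in EpiSC. Acly, acetyl-CoA carboxylase (Acaca) and fatty acid synthase (Fasn), which make the chain itself, rose 1.34-fold, 1.43-fold and 1.24-fold. Fasn stood at 86.5, 87.5 and 92.4 FPKM against 131, 101 and 99.3, its log2 change of 0.3 ± 0.09 (adjusted p = 0.0168) fell to 0.17 without EpiSC replicate 1 (adjusted p = 0.0108), and to 0.19 after median-of-ratios scaling (adjusted p = 0.108). Its call also ended without ESC replicate 1 (adjusted p = 0.0542) and in a fit of only these groups (adjusted p = 0.0863). Without EpiSC replicate 1, 27 of the 29 genes were called higher and 1 lower, against 5668 and 4989 of all 15935 genes tested. The log2 changes were then 0.60 for Idi1, 0.41 for Sc5d, 0.26 for Fdft1 and 0.93 for Insig2, against 0.83, 0.58, 0.36 and 0.69 with it. The hypoxia genes given above were also higher in EpiSC than in ESC (102 to 105 FPKM summed), and their part in these changes was not tested.

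In MEF, 17 genes were higher than in ESC and 5 lower, against 34.4% and 40.9% of all genes tested. By role, 10 of 18 sterol enzymes rose and 4 fell, 5 of 6 regulators and carriers rose, and of the fatty acid genes 2 rose and 1 fell. The median log2 change was 0.71, 0.78 and -0.05 for these sets, against -0.07 over all genes. Median-of-ratios scaling gave 22 higher and 3 lower (37.9% and 35.8% of all genes). The comparisons of EpiSC and of MEF share the ESC libraries, so the values of each are given side by side. The log2 change of Pmvk was 1.08 in EpiSC and -0.47 in MEF, that of Mvd 0.86 and -0.41, and that of Dhcr7 2.04 and -0.73.

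Hsd17b7 had the largest rise in MEF, to 21.5, 21.3 and 22.8 FPKM, a log2 change of 2.55 ± 0.31 from ESC (adjusted p = 1.61e-05). Scap rose 2.48-fold in MEF, to 31.2, 30.8 and 30.7 FPKM, and the 2 groups do not overlap. Cyp51 rose 2.9-fold over ESC, to a mean of 47.4 FPKM in MEF, above its mean of 36.1 in 2CLC. Nsdhl rose 2.64-fold, Insig2 2.36-fold, Mvk 2.16-fold and Sc5d 2.15-fold. Srebf2 stood at 57.8 ± 0.76 FPKM against 54.1 ± 2.3 in ESC, a log2 change of 0.09 ± 0.05 that missed the threshold (adjusted p = 0.0813) and passed it after median-of-ratios scaling (0.29, adjusted p = 9.17e-05).

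Dhcr7 fell in MEF to 10.6, 9.59 and 7.9 FPKM, and Ebp fell to 10.5, 10.6 and 10. The call of Mvd ended after median-of-ratios scaling (-0.22, adjusted p = 0.116). Both desaturases rose: Scd1 rose 3.31-fold over ESC to 61 ± 0.59 FPKM and Scd2 3.08-fold to 244 ± 6.3. Fasn fell by 0.24 ± 0.09 (adjusted p = 0.0359), a call that ended without any 1 of the 6 ESC and MEF libraries (adjusted p 0.057 to 0.106). The 5 adipocyte genes of a marker list that the table holds summed to 52.6 to 69.1 FPKM in MEF against 3.01 to 3.68 in ESC. Of these 5 genes, 3 had a mean of at least 1 FPKM in MEF, and Adipoq, Plin1, Fabp4 and Pparg stood at 0 in ESC. The part of the adipocyte genes in the level of the desaturases was not tested.

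Set directly against EpiSC, MEF had 6 of the genes higher and 19 lower (30.5% and 41.9% of all genes), and median-of-ratios scaling gave 10 and 16 (36.7% and 32.9%). The 6 were Mvk, Fdft1, Hsd17b7, Ebp, Sc5d and Scap. The widest gap was that of Dhcr7, which was 7.42-fold lower in MEF, a log2 change of -2.77 ± 0.11 (adjusted p = 8.9e-10). Insig1 was lower by 1.64, Pmvk by 1.55 and Srebf2 by 1.4 on the log2 scale. Scd1 and Scd2 did not differ beyond their spread, with log2 differences of 0.02 ± 0.08 and -0.02 ± 0.1, and after median-of-ratios scaling both were called higher in MEF (0.32 and 0.29). Tm7sf2, Msmo1 and Srebf1 lost their lower call under that scaling, and Fdft1 lost its higher call without EpiSC replicate 3 (adjusted p = 0.0557), as did Sc5d in a fit of only these groups (adjusted p = 0.0557).

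In 2CLC the set came apart, and the count of calls depends on how the libraries are scaled. On the deposited values 4 genes were higher than in ESC and 21 lower (20.1% and 56.4% of all genes tested), but the median of all genes stood at -0.46. After median-of-ratios scaling, which moves that median to 0.02, 15 genes were higher and 9 lower (36.8% and 32.4% of all genes). Under both scalings Dhcr7, Cyp51, Tm7sf2 and Mvd were higher, and Idi1, Nsdhl, Ebp, Sc5d, Srebf1, Insig2, Acaca, Fasn and Scd1 were lower. Hmgcs1, Sqle, Srebf2, Scap, Insig1, Acly and Scd2 were called lower on deposited values and higher after scaling, so no direction is given for them.

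**Figure D3:**
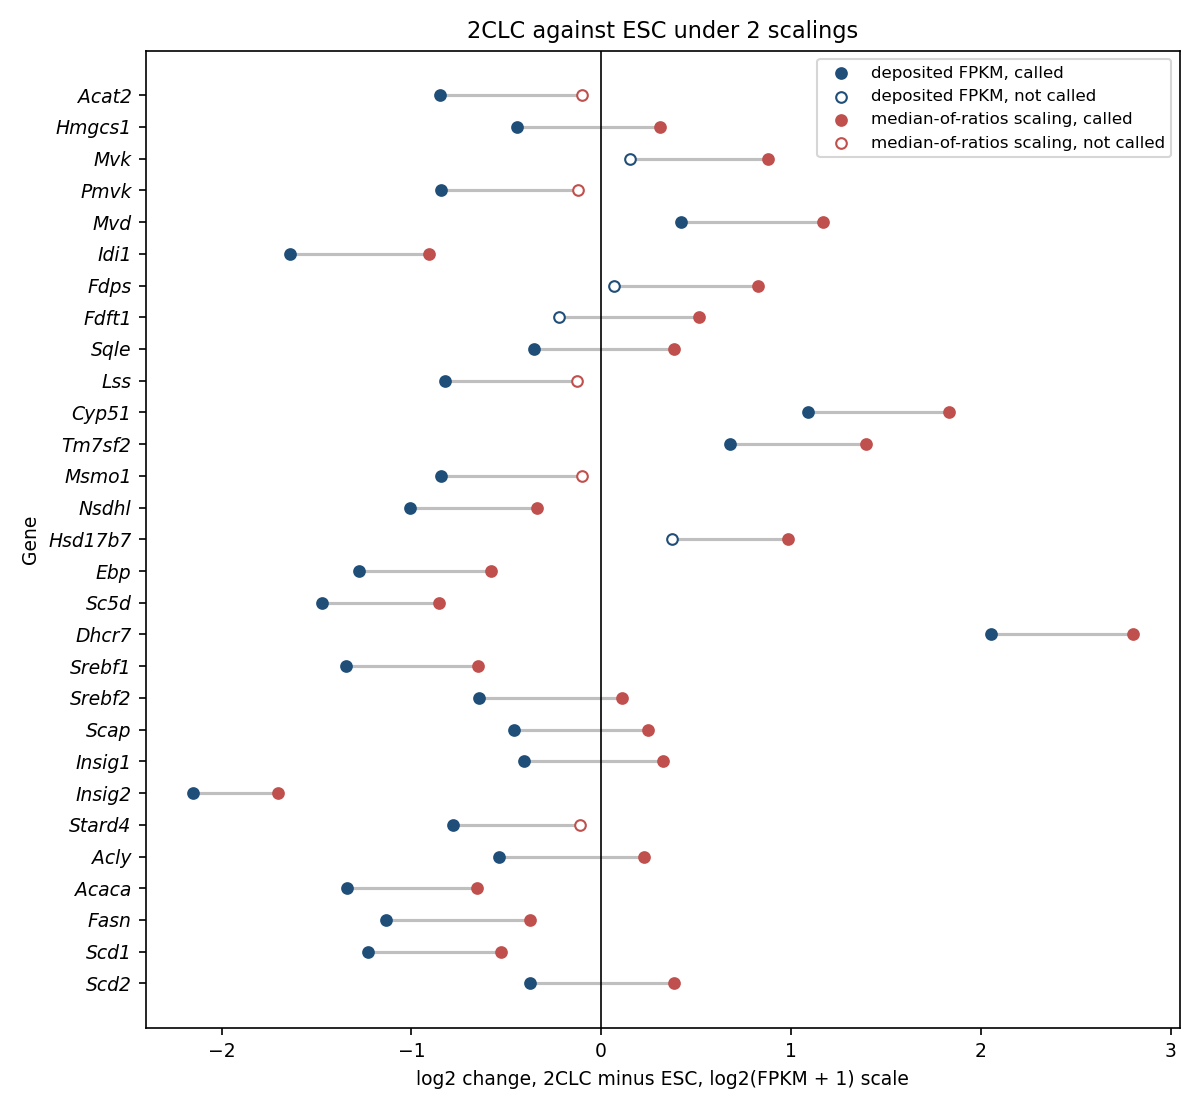
Log2 change from ESC to 2CLC of each of the 29 genes on the deposited FPKM (blue) and after median-of-ratios scaling (red), filled where the adjusted p is under 0.05. Grey lines join the values of a gene: Dhcr7 and Cyp51 stay right of 0 and Insig2, Idi1 and Sc5d stay left of it, while the lines of Hmgcs1, Sqle and Scd2 cross it.

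Dhcr7 stood at 75.6, 74 and 61.5 FPKM in 2CLC, near its EpiSC level and 4.35-fold above ESC. Its log2 change was 2.05 ± 0.11 (adjusted p = 1.24e-08) and 2.8 after median-of-ratios scaling. Cyp51 stood at 33.8, 33.2 and 41.4 FPKM against 17.3, 16.3 and 15.6 in ESC, and Tm7sf2 at 16.9, 13.3 and 16.4 against 9.31, 9.14 and 9.43. Neither gene's groups overlap. Cyp51, Tm7sf2 and Dhcr7 act in the post-lanosterol part of the pathway, Cyp51 and Tm7sf2 one after the other, and Mvd, higher by 0.42 ± 0.12 on the log2 scale, makes isopentenyl pyrophosphate.

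Other steps of the pathway were lower in 2CLC. Sc5d, which acts just before Dhcr7, stood at 2.6, 3.25 and 2.53 FPKM against 9.73, 9.53 and 9.2, a log2 change of -1.47 ± 0.13 (-0.85 after scaling). Ebp stood at 5.43, 6.87 and 9.02 against 18.3, 18.1 and 18.6. Nsdhl was 2.21-fold lower and Idi1 3.24-fold lower, the latter at 13.9, 12.2 and 16.3 FPKM against 45.3, 47.2 and 44.7. Of the regulators, Insig2 fell to 0.93, 0.421 and 1.04 FPKM from 7.34, 6.15 and 7.2, the largest fall of the 29 genes (log2 change -2.15 ± 0.19, adjusted p = 1.13e-06). Srebf1 fell to 6.43, 6.19 and 6.51 FPKM, 2.78-fold below ESC.

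Of the 5 fatty acid genes, Acaca, Fasn and Scd1 were lower under both scalings. Acaca, the rate-limiting step of fatty acid synthesis, stood at 5.51, 5.29 and 6.07 FPKM against 15.1, 15.7 and 16.4 in ESC, Fasn at 38.7, 38.4 and 42.9 against 86.5, 87.5 and 92.4, and Scd1 at 7.18, 6.86 and 7.84 against 17, 18.4 and 19.8. No 2CLC library reached the lowest ESC library for any of them.

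The balance between the sets was compared within each library, where scaling matters little. The mean log2(FPKM + 1) of the 18 sterol enzymes less that of the 5 fatty acid genes was -0.51, -0.44 and -0.43 in the 2CLC libraries, -1.05, -1.12 and -1.15 in ESC, -0.94, -0.89 and -0.92 in EpiSC, and -1.19, -1.17 and -1.13 in MEF. The 2CLC libraries lie above all others, 0.65 above ESC on average, and 0.63 above it after median-of-ratios scaling. Without Dhcr7 and Cyp51, left out after their values were seen, the gap was 0.42. The 5 fatty acid genes leave out the desaturase Scd3, at 71.6, 71.9 and 68.5 FPKM in 2CLC and at most 0.662 in the other states. Its log2 change from ESC to 2CLC was 5.51, while all 5 genes used were called lower on the deposited values. The balance was not computed with Scd3, so the gap of 2CLC holds only for the 5 genes used. EpiSC lay 0.19 above ESC with no overlap, and MEF lay 0.06 below ESC with overlapping libraries. These are descriptions, with no test, since the genes were chosen with results known.

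**Figure D4:**
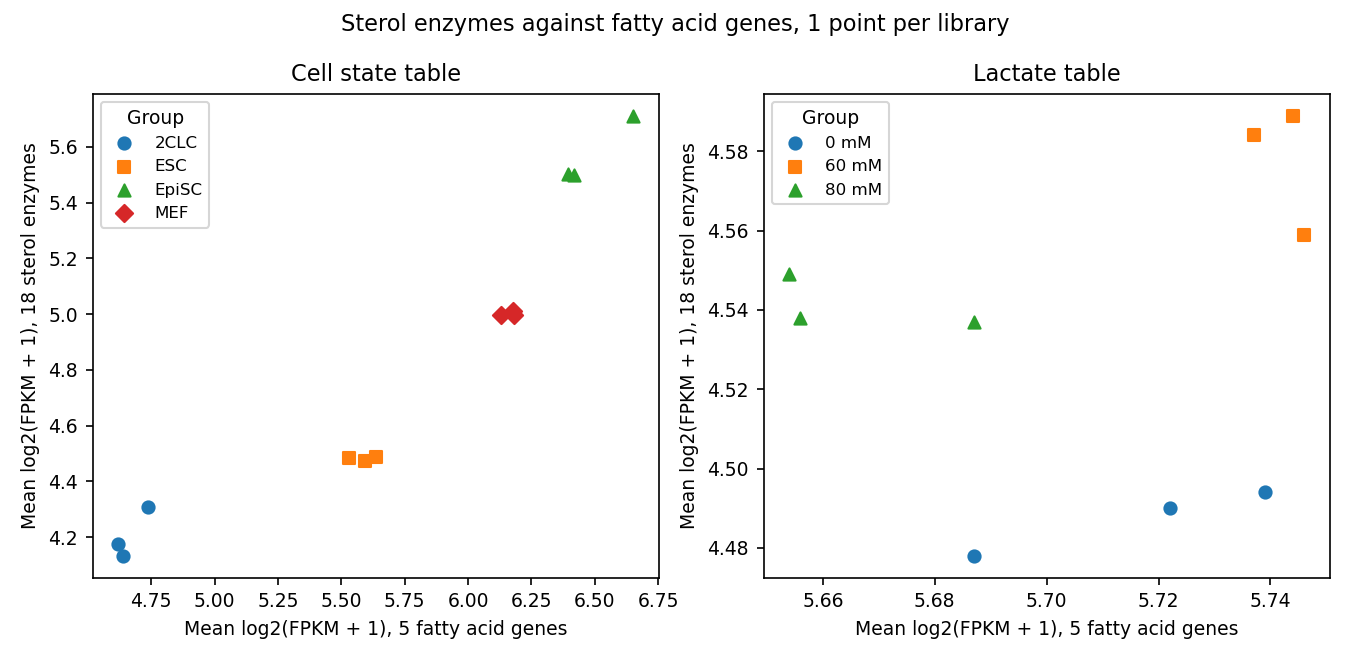
Mean log2(FPKM + 1) of the 18 sterol enzymes against that of the 5 fatty acid genes, 1 point per library, for the cell state table (left) and the lactate table (right). EpiSC libraries are highest on both axes, 2CLC libraries are lowest on both on these deposited values (the median log2 change of the sterol enzymes from ESC to 2CLC was -0.40, and 0.35 after median-of-ratios scaling), and the lactate libraries differ by far less than the states do.

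Sodium lactate shifted single genes of the set in both directions. At 60 mM 10 genes were higher and 6 lower than at 0 mM (23.5% and 18.6% of the 13271 genes tested), and median-of-ratios scaling gave 8 and 8 (19.4% and 22.8%). At 80 mM 8 were higher and 10 lower (30.0% and 23.1%). The median log2 change of the 29 was 0.02 at either dose. The 0 mM libraries serve both comparisons, so values are given by dose below.

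**Figure D5:**
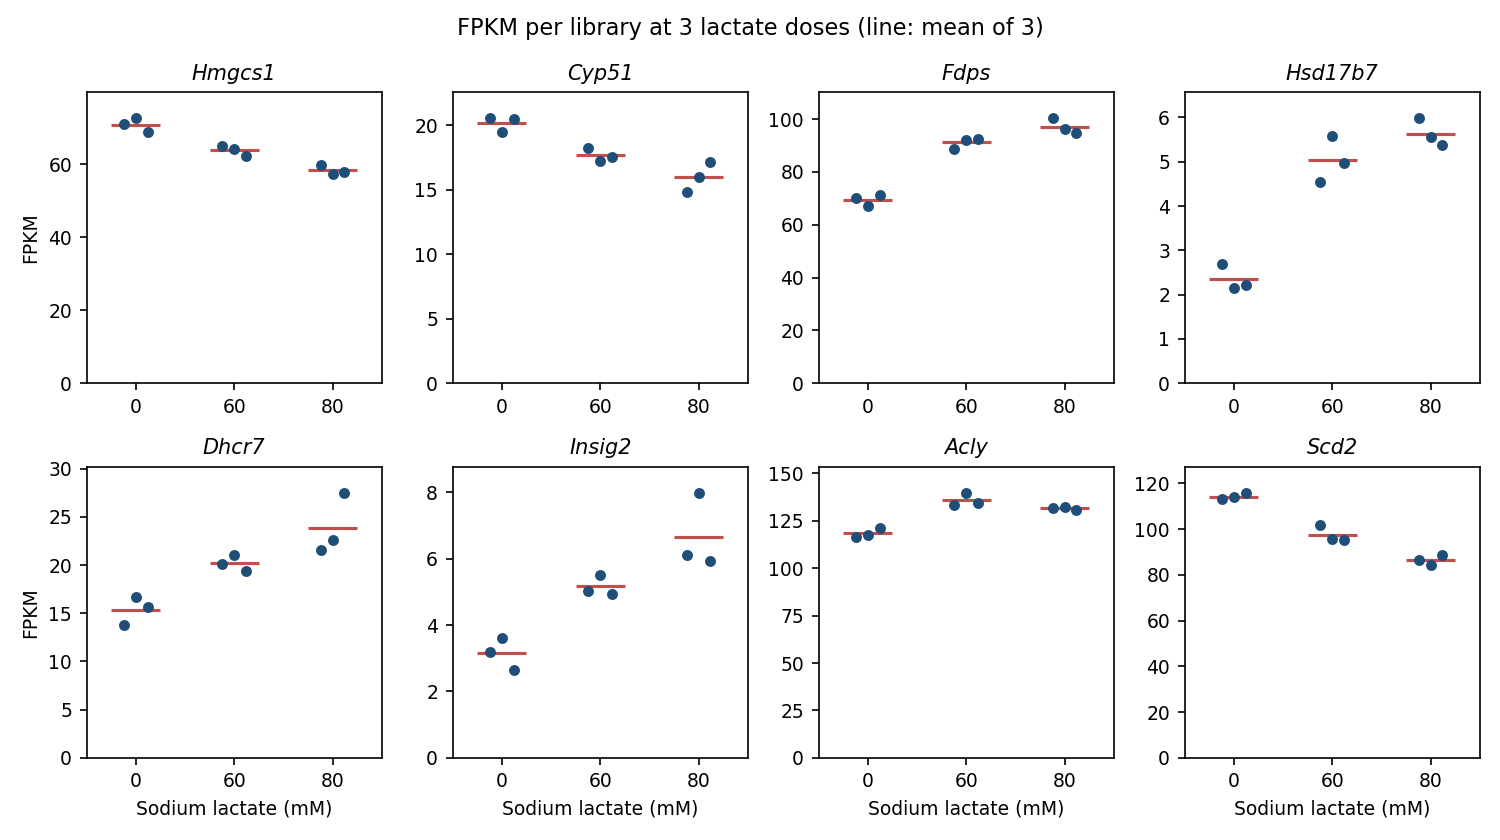
FPKM (linear axes from 0) of 8 genes in each ESC library at 0, 60 and 80 mM sodium lactate; points are libraries and lines are means of 3. Hsd17b7, Insig2, Fdps and Dhcr7 are higher with lactate, Scd2, Hmgcs1 and Cyp51 are lower.

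Among the regulators, Insig2 stood at 3.19, 3.6 and 2.65 FPKM at 0 mM, at 5.03, 5.51 and 4.94 at 60 mM and at 6.1, 7.97 and 5.91 at 80 mM, with no overlap between doses. Its log2 change at 80 mM was 0.88 ± 0.12 (adjusted p = 0.000124). Scap rose from 16.6 ± 1 to 21.7 ± 1.2 and 24.2 ± 1 FPKM. Insig1, by contrast, fell by 0.15 at 60 mM and by 0.16 at 80 mM, from 33.9, 34.5 and 35.3 FPKM to 31.7, 30.3 and 30.8 at the higher dose. Srebf2 fell at 80 mM by 0.16 ± 0.04 (adjusted p = 0.0107), and Srebf1 stood at 22.9 ± 0.31, 22.3 ± 0.76 and 23 ± 1.3 FPKM over the doses.

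Of the sterol enzymes, Hsd17b7 changed most, from 2.7, 2.15 and 2.22 FPKM at 0 mM to 4.54, 5.58 and 4.98 at 60 mM and 5.98, 5.55 and 5.38 at 80 mM. Its log2 change at 80 mM was 0.99 ± 0.09 (adjusted p = 1.15e-05). Fdps rose from 70.1, 67.2 and 71.3 FPKM to 100, 96.4 and 94.9 at 80 mM, Fdft1 from 33.4 ± 1.1 to 44.1 ± 1.2, and Pmvk from 21.7 ± 0.76 to 28 ± 2.3. Dhcr7 rose 1.31-fold at 60 mM and 1.55-fold at 80 mM, to 21.6, 22.6 and 27.5 FPKM at the higher dose, above all 0 mM libraries (13.8 to 16.7).

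The sterol enzymes that fell at 80 mM numbered 7: Acat2, Hmgcs1, Idi1, Sqle, Lss, Cyp51 and Sc5d. Hmgcs1 stood at 71.2, 72.6 and 68.8 FPKM at 0 mM, at 65.1, 64.1 and 62.3 at 60 mM and at 59.7, 57.4 and 57.9 at 80 mM, with no overlap between doses. Its log2 change at 80 mM was -0.28 ± 0.03 (adjusted p = 6.65e-05). Cyp51 fell by 0.32 and Sc5d by 0.44 on the log2 scale at 80 mM. At 60 mM the fall of Cyp51 (-0.18, adjusted p = 0.0235) lost its call without 0 mM replicate 1 or 3 or without 60 mM replicate 2 or 3 (adjusted p 0.062 to 0.074).

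In the fatty acid set, Scd2 fell with dose, from 113, 114 and 116 FPKM to 102, 95.5 and 95.1 and then 86.6, 84.5 and 88.7, a log2 change of -0.4 ± 0.03 at 80 mM (adjusted p = 7.49e-06). Acly rose by 0.2 at 60 mM and 0.15 at 80 mM. Acaca and Scd1 did not pass the test at either dose, with log2 changes at 80 mM of 0 and -0.06, and Fasn passed at 60 mM (0.11 ± 0.03, adjusted p = 0.019) but not at 80 mM (0.05 ± 0.03). The 60 mM calls of Fasn and of Tm7sf2 (0.27, adjusted p = 0.0318) ended after median-of-ratios scaling (adjusted p = 0.131 and 0.0616), and also without 60 mM replicate 2 (adjusted p = 0.064 and 0.103), for Fasn without 0 mM replicate 1 or 60 mM replicate 3, and for Tm7sf2 without 0 mM replicate 2 or 60 mM replicate 1. Between the doses, 0 genes were higher and 3 lower at 80 mM than at 60 mM (4.06% and 2.11% of all genes): Hmgcs1, Idi1 and Scd2. Leaving out any 1 of the 60 and 80 mM libraries left 0 or 1 of these calls, and without 0 mM replicate 1 or 2 the call of Hmgcs1 was lost (adjusted p = 0.0671 and 0.0594).

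The sterol enzymes less the fatty acid genes, taken per library as above, lay at -1.209, -1.233 and -1.245 at 0 mM, -1.187, -1.153 and -1.155 at 60 mM and -1.15, -1.118 and -1.105 at 80 mM. The means were higher by 0.06 and 0.1 than at 0 mM, and libraries of 0 mM do not overlap with either dose. Median log2 changes of sterol enzymes and fatty acid genes were 0.017 and 0.093 at 60 mM (0.025 over all genes). At 80 mM they were 0.034 and -0.001 (0.034 over all genes). Single genes weigh on such means, as Hsd17b7 (0.99) and Scd2 (-0.4) at 80 mM. The difference was not computed without them or with Scd3. The log2 changes of the 29 genes at 80 mM and in 2CLC came from separate libraries and had a Pearson r of 0.19 (Spearman rho 0.21) across genes, a description over genes that share pathways and are not independent. On the deposited values Dhcr7 was called higher in both and 9 genes were called lower in both: Acat2, Hmgcs1, Idi1, Sqle, Lss, Sc5d, Srebf2, Insig1 and Scd2. Idi1 and Sc5d are the ones among these 9 that were also called lower in 2CLC after median-of-ratios scaling. Under that scaling Fdps, Fdft1, Hsd17b7, Scap and Acly were called higher in both along with Dhcr7, with log2 changes in 2CLC of 0.83, 0.52, 0.99, 0.25 and 0.22 and at 80 mM of 0.41, 0.32, 0.93, 0.45 and 0.08. Insig2 was lower in 2CLC and higher at 80 mM under both scalings. On the deposited values 20.1% of all genes tested were called higher and 56.4% lower in 2CLC, and 30.0% and 23.1% at 80 mM. After median-of-ratios scaling the shares in 2CLC were 36.8% and 32.4%. At 80 mM 3269 and 3913 of 13271 genes were then called higher and lower. The share of all genes called alike in both comparisons was not computed, so the shared calls have no background beside them. In the lactate libraries the 9 genes of the 2-cell marker list summed to 49 to 53.9 FPKM at 0 mM, 106 to 118 at 60 mM and 169 to 177 at 80 mM. The hypoxia genes summed to 90.9 to 91.6, 120 to 123 and 148 to 149. The 9 primed genes summed to 65.9 to 70.3, 90.3 to 98.8 and 98.2 to 104.4, with 8, 6 and 5 of them at a mean of at least 1 FPKM. A list of 10 naive pluripotency genes summed to 2047.5 to 2094.1, 2247.2 to 2329.2 and 2341.1 to 2418.6. The part of any of these lists in the changes of the 29 genes was not tested.

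Other genes of the same pathways were read from lists drawn up beside the set. Of the 11 sterol and isoprenoid genes tested outside the set, 7 rose and 2 fell in EpiSC (median log2 change 0.42), where 33.2% of all genes tested were called higher and 26.5% lower, as for each list below in EpiSC. In 2CLC 1 rose and 8 fell on the deposited values (20.1% and 56.4% of all genes), and 5 rose and 5 fell after median-of-ratios scaling (36.8% and 32.4%). Lbr, the other sterol reductase that can act after Cyp51, rose by 0.42 in EpiSC and fell by 0.25 at 80 mM. Of 17 genes of cholesterol uptake, storage and efflux, 15 rose and 1 (Abca1, the efflux pump) fell in EpiSC, among them Vldlr (3.07), Lrp8 (2.16), Soat1 (1.84) and Npc1 (1.29). In contrast 13 genes of SREBP processing and protein turnover gave 3 higher and 4 lower in EpiSC, with Mbtps1 at -0.27 and Erlin1 at -1.12. Of 20 genes of fatty acid supply, elongation, desaturation and esterification, 13 rose and 4 fell in EpiSC, with Fads2 at 2.2, Fads1 at 0.62, Lpin1 at 2.86 and Dgat2 at 2.32. Of 19 fatty acid oxidation genes, 8 rose and 10 fell in EpiSC, with Cpt1a, the gate to mitochondrial oxidation, at -1.98 and Acadm at -0.97.

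With lactate, Apoe, the lipoprotein component that carries cholesterol between cells, fell from 382, 386 and 409 FPKM at 0 mM to 116, 119 and 105 at 60 mM and 95.2, 92.9 and 96.1 at 80 mM (log2 change -2.04 ± 0.05 at 80 mM, adjusted p = 3.04e-09). Abca1 rose by 0.75 at 80 mM. Of 19 genes of fatty acid supply and elongation, 10 rose and 2 fell at 80 mM (30.0% and 23.1% of all genes), with Acacb at 0.79, Agpat2 at 0.79, Elovl6 at 0.63 and Acss2, which makes acetyl-CoA from acetate, at 0.67. Slc25a20, the carnitine carrier of mitochondria, rose by 1.07 and Cpt1a fell by 0.51.

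Some of the genes overlap others in GENCODE M21, and the sources used here do not state whether counting used strand. Cyp51 overlaps Akap9, Fdft1 overlaps Ctsb, Srebf1 overlaps Rai1, Tm7sf2 overlaps Vps51, Mvd overlaps Gm20388, Acaca overlaps Gm11437 and Fdps overlaps Gm43738, so part of their values may come from those neighbours. Acat2 has the near copy Acat3, and Scd1 and Scd2 are close paralogues, so reads could be divided between them.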

How the data were processed

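RNA from 21 libraries was sequenced: 12 in the cell state table and 9 in the lactate table. Per the labels' protocols, total RNA was extracted with Trizol, prepared with an Illumina TruSeq RNA kit and run on a MiSeq. The values the authors deposited are FPKM per gene. The submitters' processing notes name HISAT2 2.0.4 and StringTie 2.1.4 without their settings. Strand use and read depth are not given in the sources used here, and FPKM keep no read count, so no counting interval is given.

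Values of a gene name on several lines were summed, genes were kept where 3 or more libraries of the table reached 1 FPKM, and log2(FPKM + 1) was fitted with limma 3.58.1 (R 4.3.3, mean trend, all groups of a table in 1 fit). P-values are two-sided and Benjamini-Hochberg adjusted over all genes of a comparison, with a threshold of 0.05. Fold changes are ratios of mean FPKM, while log2 changes on the log2(FPKM + 1) scale understate those of low genes. The 2 tables were tested apart. The procedure was tested on simulated data.

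The alternatives tried were quantile normalization, scaling by median of ratios, a fit without the mean trend, a fit of only the groups compared, a replicate block, pseudocounts of 0.1 and 5, a filter at 5 FPKM or none, and leaving out each library. The members and lists were chosen with earlier results of these data known. All 29 members are named, as were to be 15 set genes of the related lists and, per comparison, the 2 further genes of each list with the largest called change at 5 FPKM or more; some of these further genes are not reported here. Promoters are RefSeq sequences matched by symbol.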

Additional observations from a re-analysis of the deposited data

How the results depend on the processing

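Median-of-ratios scaling moved the 2CLC counts to 15 higher and 9 lower, the count lower in MEF than in ESC to 3 and the count higher in MEF than in EpiSC to 10. In 2CLC it reversed Hmgcs1 (0.31), Sqle (0.39), Srebf2 (0.11), Scap (0.25), Insig1 (0.33), Acly (0.22), Scd2 (0.38), Fads1 (0.30), Acadm (0.017), Pdss1 (0.37), Dhdds (0.24), Sec24a (0.30), Scarb1 (0.14), Elovl1 (0.091) and Acadl (0.29), and Ggps1 (0.038) between MEF and EpiSC. Quantile normalization reversed Sqle (0.025), Insig1 (0.013), Pdss1 (0.048), Sec24a (0.071) and Acadl (0.058) in 2CLC. The cause was not tested. The count lower at 80 than at 60 mM was 0 without a filter and 1 without the mean trend. Without Dhcr7 and Cyp51, an alternative chosen after seeing the data, the sterol-less-fatty-acid gap of 2CLC was 0.42.

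With single libraries left out, the members called higher and lower ranged from 4 to 6 and 21 to 22 in 2CLC, 26 to 27 and 1 in EpiSC, 17 to 19 and 4 to 5 in MEF against ESC, 6 to 7 and 19 in MEF against EpiSC, 8 to 10 and 5 to 6 at 60 mM, 8 to 9 and 10 at 80 mM, and 0 and 0 to 3 between the doses. Over all genes tested (14976 to 16181 in the cell states), these counts were 1729 to 3543 and 8684 to 9645 in 2CLC. EpiSC had 4648 to 5668 and 3751 to 4989, and MEF against ESC 4510 to 5880 and 6227 to 7006. MEF against EpiSC had 3828 to 5346 and 6248 to 6837. Of 13106 to 13211 genes with lactate, 60 mM had 2601 to 3018 and 2034 to 2455. At 80 mM they were 3510 to 3922 and 2675 to 3029, and between the doses 237 to 532 and 106 to 265. The sterol-less-fatty-acid difference ranged from 0.63 to 0.68 in 2CLC, 0.17 to 0.22 in EpiSC, -0.08 to -0.03 in MEF against ESC, -0.26 to -0.23 in MEF against EpiSC, 0.056 to 0.075 at 60 mM, 0.095 to 0.12 at 80 mM and 0.03 to 0.054 between the doses. The correlation of the 80 mM and 2CLC changes ranged from 0.129 to 0.237.

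Libraries of different groups share only a replicate number. With the replicate block, 2 in place of 3 genes were lower at 80 than at 60 mM, Hmgcs1 losing its call (-0.13, adjusted p = 0.0622 by limma), and no other call of the 29 genes changed. With 3 libraries a group and an unknown read depth, small differences of genes near 1 FPKM cannot be resolved.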

Other observations

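Scd3, a stearoyl-CoA desaturase closely related to Scd1 and Scd2, was looked at after its values were seen. It stood at 71.6, 71.9 and 68.5 FPKM in 2CLC and at 0.427, 0.662 and 0.641 in ESC, with at most 0.288 in EpiSC and 0.046 in MEF. The log2 change was 5.51 (6.13 after median-of-ratios scaling), while Scd1 was lower in 2CLC. Scd3 passed the filter of 1 FPKM only through the 2CLC libraries, so no p-value is given for it. With lactate Scd3 stood at 0.655, 0.622 and 0.46 FPKM at 0 mM, at 1.2, 1.44 and 1.47 at 60 mM and at 1.72, 2.24 and 2 at 80 mM. The log2 change was 0.59 at 60 mM and 0.92 at 80 mM. No p-value is given here either, since Scd3 passed the filter only through the 60 and 80 mM libraries. Reads of such paralogues can be divided between them by the authors' counting.

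Acacb, the acetyl-CoA carboxylase tied to fatty acid oxidation, stood at 0.787, 0.702 and 1.15 FPKM in 2CLC and at 9.72, 9.32 and 9.44 in ESC (log2 change -2.49), and rose by 0.84 at 60 mM and 0.79 at 80 mM. In 2CLC the fatty acid oxidation list gave 7 of 19 genes higher and 7 lower on the deposited values and 15 and 1 after median-of-ratios scaling, with Acaa2 at 1.45 and Hadha at 1.12 on the deposited values. The list of SREBP processing and protein turnover gave 0 of 13 genes higher and 12 lower there on the deposited values (20.1% and 56.4% of all genes by limma), and 2 and 10 after median-of-ratios scaling (36.8% and 32.4%), with Rnf145 at -2.92 and Ube2g2 at -1.75. Aacs (-1.32), Coq2 (-1.08), Gramd1a (-1.64), Nr1h2 (-1.1) and Mid1ip1 (-1.89) fell in 2CLC under both scalings.

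In MEF against ESC the largest called changes of these lists included Fads3 (5.08), Lipa (3.47), Elovl1 (2.74), Acadl (2.44), Npc2 (2.31), Acat1 (2.02), Aacs (1.72), Sec23a (1.34) and Ube2g2 (0.96). Between MEF and EpiSC, Acat1 (2.76), Acaa2 (2.3), Acadvl (1.85) and Erlin1 (0.89) were higher in MEF, and Pdss1 (-0.85) was lower. In EpiSC against ESC, Coq2 (0.99), Aacs (0.95), Rnf145 (0.89), Acadl (1.7) and Cpt1c (1.52) were higher. With lactate, Ggps1 (0.57) and Dhdds (0.32) rose at 60 mM, Scarb1 rose by 0.48 and 0.58 and Acaa2 by 0.54 and 0.62 at 60 and 80 mM, Sec23a rose by 0.23 and 0.33, Sec24a rose by 0.26 at 80 mM, Rnf139 fell by 0.24 at 60 mM, and Me1 was 0.25 higher at 80 than at 60 mM.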
